A study of Sus scrofa with 2 samples.

Results

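The genes described here encode the machinery of oxidative phosphorylation, measured by RNA sequencing in the hippocampus of piglets. They were taken by name: symbols that start with NDUF, UQCR or ATP5, symbols of COX followed by a digit, SDHA to SDHD, CYC1, CYCS and the 13 protein genes of the mitochondrial genome. This rule found 69 of the 11804 gene IDs with a symbol, in a table of 25322 IDs, and all 13 mitochondrial genes were among them. CYC1, ATP5F1B, NDUFS3, NDUFS7, NDUFS8 and NDUFV2 had no ID paired with that symbol, so the complexes are described by the subunits that were matched. The study compared 1 control sample with 1 sample from piglets given iron dextran, an injectable iron preparation used in young pigs, which are prone to iron deficiency. Both groups were Rongchang piglets whose genotype is labelled "wide type", and no source used here gives the dose, the route, the age or how many animals were sampled. Each sample lists 2 names without saying what they stand for, and each has a single value per gene. No test was possible, and no difference below has a replicate check.

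Oxidative phosphorylation takes place in the inner mitochondrial membrane. Complex I and complex II pass electrons to ubiquinone, complex III passes them on to cytochrome c, and complex IV gives them to oxygen, while complex V, the ATP synthase, uses the proton gradient to make ATP. Iron is part of this chain, as iron-sulfur clusters in complexes I, II and III and as haem in complexes II, III and IV and in cytochrome c. Nuclear genes encode most subunits, and the mitochondrial genome encodes core subunits of every complex except complex II. Neurons depend on this pathway for most of the ATP spent on ion pumping and synaptic transmission.

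The oxidative phosphorylation genes were at nearly the same level in both samples. Levels are in FPKM, the fragments mapped to a gene divided by its transcript length and by the library's mapped fragments. Differences are taken as log2(FPKM + 1) with iron dextran less that of control, and for genes of low level this scale shrinks a change. Of the 69 members, 67 had a mean FPKM of at least 1. NDUFA4L2 (0.303 FPKM in control, 0.113 with iron dextran), a paralog of NDUFA4, lay below that limit. COX10, of the haem A synthesis that complex IV needs, was listed at 0 in both samples, and such a 0 can be a failed estimate. None of the 67 was at least 1.5-fold higher and none was at least 1.5-fold lower, where 2.47% and 1.47% of all 12557 genes tested were. The ratio of iron dextran to control ran from 0.769 (COX18) to 1.23 (NDUFAF7), and 65 of the 67 (97.0%) lay within 20% of control. The same held for 74.9% of all genes tested and for 95.4% of those at a mean of 100 FPKM or more, so this share is near that of other abundant genes.

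**Figure D1:**
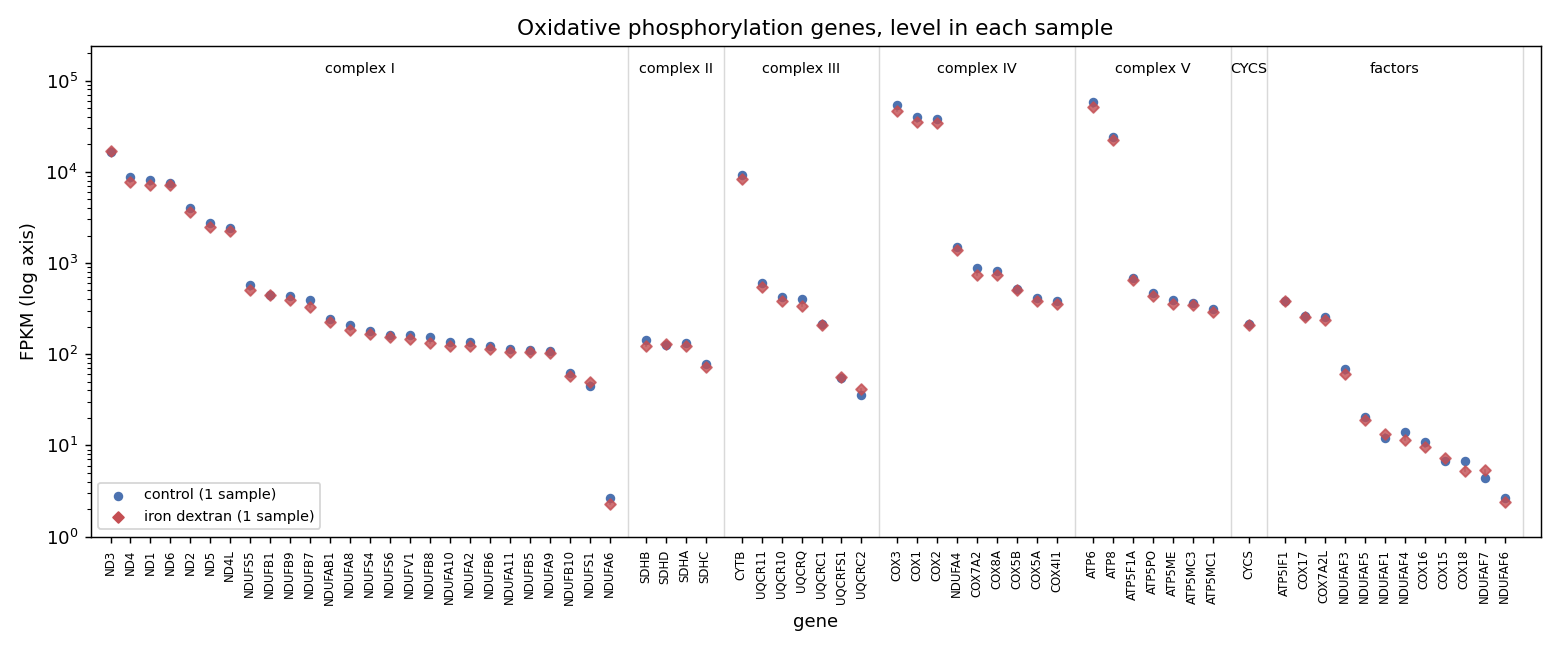
FPKM (log axis) of members with a mean FPKM of at least 1, by complex (1 of the 67 is not drawn), in the control sample (circles) and the iron dextran sample (diamonds). The 13 mitochondrially encoded genes sit above all nuclear members, and the symbols of both samples nearly coincide at every gene.

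Within this narrow range most members were slightly lower in iron dextran. The difference was below 0 for 59 of the 67 members and above 0 for 8, with a median of −0.11 and quartiles of −0.16 and −0.08. Over all genes tested, 51.0% were below 0 and 49.0% above, and the median was −0.0046. The members are abundant, and abundant genes as a whole were lower too: of 979 genes at a mean of 100 FPKM or more, 81.7% were below 0, with a median of −0.10. Of these 979, 0.511% were at least 1.5-fold higher and 0.409% at least 1.5-fold lower. Among nuclear subunits with a mean FPKM of at least 100, 34 of 35 were below 0, with a median of −0.11. The column total moved the same way, since the summed FPKM was 924070 for control and 850165 for iron dextran, 0.920 of control, and the median ratio of the members was 0.923. With both columns scaled to the same total, which moved the median of all genes to 0.10, only 31 of the 67 members were below 0 and their median was 0.0042. The difference between the members' median and that of all genes was −0.11 with the values as deposited and −0.0986 with the same total. After centring each gene on genes of like expression, a setting chosen after seeing the data, 44 members were below 0 and the median was −0.03. The medians of the members as a group and of complexes I, II and V turned above 0 with the same column total. Those of complexes III and IV stayed below 0 under every scaling tried, at −0.0113 and −0.0077 with the same total.

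**Figure D2:**
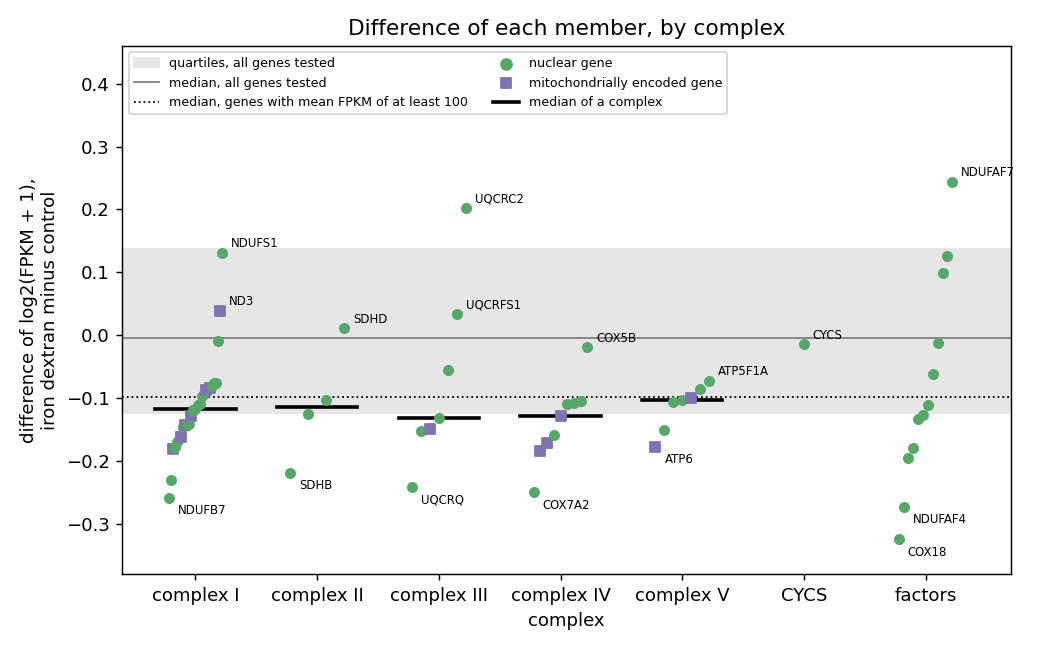
Difference of log2(FPKM + 1) of each member between iron dextran and control (above 0, higher with iron dextran), with bars at the median of each complex, for values as deposited. The medians of the 5 complexes lie between −0.13 and −0.10, close to the dotted line of genes at 100 FPKM or more (−0.10), and no member reaches 1.5-fold.

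The medians of the 5 complexes lay close together. The median difference over subunits was −0.12 for complex I (27 subunits), −0.11 for complex II (4), −0.13 for complex III (7), −0.13 for complex IV (9) and −0.10 for complex V (7). The highest and the lowest of these medians were 0.0282 apart. Whether the complexes differ was not tested, since each has 1 value per gene and sample. The SD of the differences among subunits ran from 0.0372 in complex V to 0.148 in complex III. With the values as deposited, all tested subunits of complexes IV and V were below 0. Complex III had the widest range, from −0.24 to 0.20.

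The mitochondrially encoded genes, which are copied from long transcripts of the mitochondrial genome, made up 29.5% of the summed FPKM in control and 29.0% in iron dextran. The 56 nuclear members made up 1.53% in each sample. The lowest of the 13 mitochondrial genes had 1.61 times the FPKM of the highest nuclear member in control and 1.63 times in iron dextran. ATP6 (ENSSSCG00000018081), subunit a of the ATP synthase, was the highest with 58266 FPKM in control and 51518 with iron dextran. The core subunits of complex IV followed, COX3 with 53381 and 46969 FPKM, COX1 with 40030 and 35530, and COX2 with 37762 and 34557. ATP8 (23969 and 22367 FPKM), another subunit of the ATP synthase, lies between COX2 and ATP6, so the 5 highest genes are neighbours on the mitochondrial genome. The genes of complex I were lower: ND4 had 8708 and 7783 FPKM, ND1 8145 and 7184, ND2 3963 and 3591, and ND5 2710 and 2479. CYTB, the haem-binding core of complex III, had 9193 and 8288 FPKM. ND6, the mitochondrial protein gene coded on the other strand, had 7556 and 7130 FPKM, and ND4L had 2392 and 2251. ND3 (ENSSSCG00000018084), a small subunit of complex I, was the exception in direction, with 16294 FPKM in control and 16741 with iron dextran, a difference of 0.04. All 13 genes kept their place in the order of levels. The median difference of the 13 was −0.14, with 12 below 0. It was −0.02 with the same column total, where 9 were below 0. The annotated ATP8, ATP6 and COX3 overlap each other in turn, as do ND4L and ND4, and ND5 and ND6, so reads in the shared bases can be counted for either gene and these values are uncertain to that extent.

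**Figure D3:**
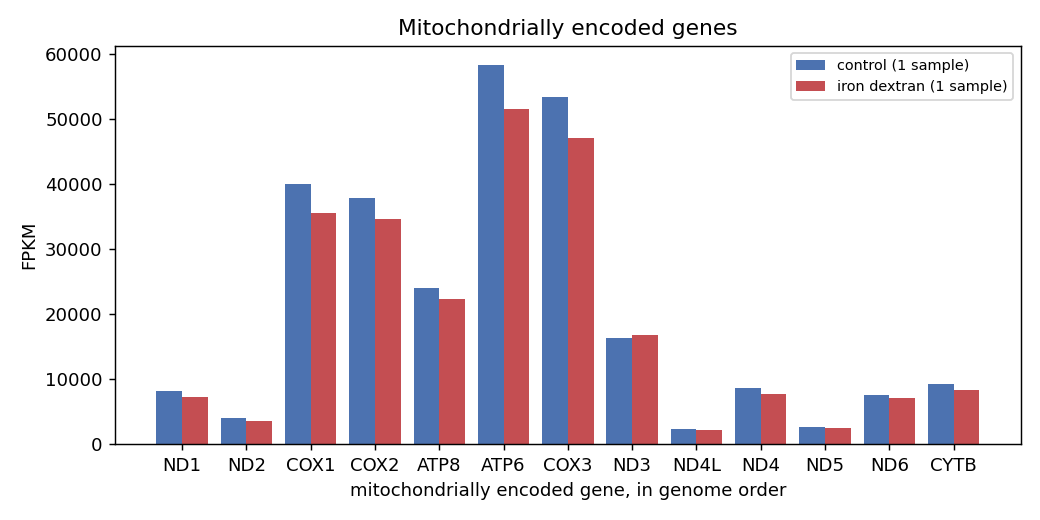
FPKM of the 13 mitochondrially encoded genes in genome order, control and iron dextran side by side, 1 sample each. The stretch from COX1 to COX3 holds the 5 highest genes, ATP6 reaching 58266 FPKM in control, and ND3 is the gene with the higher bar in iron dextran.

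The balance between the 2 genomes, a ratio within each sample that no scaling of a column can change, was almost the same. The median mitochondrial gene had 47.5 times the FPKM of the median nuclear subunit in control and 47.4 times in iron dextran. That ratio counts all 42 nuclear subunits, with NDUFA4L2, which lay below the limit of 1 FPKM. Over the 41 tested, the nuclear median was 207 FPKM in control and 185 with iron dextran. The mitochondrial median was 9193 and 8288 FPKM. By complex and over tested subunits, the ratio of medians was 47.6 and 51.1 for complex I and 29.9 and 30.4 for complex III. It was 60.2 and 57.4 for complex IV, and 105 and 104 for complex V. This ratio was thus higher in iron dextran for complexes I and III and lower for complexes IV and V. These amounts are small, with no replicate to set them against. For complexes I and III the direction depends on the measure. The median difference was −0.13 for mitochondrial and −0.11 for nuclear subunits in complex I, and −0.15 and −0.09 in complex III. It was −0.17 and −0.11 in complex IV, and −0.14 and −0.10 in complex V.

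Complex I is the largest entry point of electrons, and 20 of its nuclear subunits were measured, with 19 below 0 and a median of −0.11. NDUFS5, an accessory subunit, was the highest of them with 578 FPKM in control and 511 with iron dextran. NDUFB7 (392 and 327 FPKM) and NDUFB8 (156 and 133), accessory subunits of the membrane arm, had the lowest differences, −0.26 and −0.23. NDUFB1 (449 and 447 FPKM) hardly differed. Of the core subunits that carry electrons, NDUFV1, which binds NADH, had 162 and 147 FPKM. NDUFS1 (ENSSSCG00000016127), the subunit with the most iron-sulfur clusters, went the other way, with 44.8 FPKM in control and 49.2 with iron dextran, a difference of 0.13. The ratio of NDUFV1 to NDUFS1 was 3.61 in control and 2.98 in iron dextran; this pair was chosen after its values had been seen. The 7 subunits of complex I whose symbols start with NDUFA, NDUFAB1 among them, had differences from −0.17 to −0.08. One of them, NDUFA6, stood far below the rest in level, with 2.67 and 2.26 FPKM, and the next lowest subunit, NDUFS1, had 16.8 times its control FPKM. The lower end, −0.17, is NDUFA6 on a scale that shrinks changes at low level. Without the added 1, the log2 ratio of NDUFA6 was −0.24. NDUFAB1, the acyl carrier protein that is also needed for iron-sulfur cluster assembly, had 244 and 226 FPKM.

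Complex II, succinate dehydrogenase, also serves the tricarboxylic acid cycle and is built from nuclear subunits alone. SDHA, the flavoprotein, had 133 FPKM in control and 122 with iron dextran. SDHB (ENSSSCG00000020926), which carries the iron-sulfur clusters, had 144 and 124 FPKM, a difference of −0.22 and the lowest of the complex. Of the membrane anchors that hold the haem, SDHC had 77.1 and 71.7 FPKM and SDHD had 128 and 129. The 4 levels lay within 1.87-fold of each other in control and within 1.79-fold in iron dextran. SDHB was the highest of the complex in control and SDHD in iron dextran.

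Complex III showed the widest differences between subunits. UQCRC2 (ENSSSCG00000007845), a core protein of the matrix side, had 36.0 FPKM in control and 41.6 with iron dextran, and its difference of 0.20 was the highest of all subunits. Its partner core protein UQCRC1 had 216 and 208 FPKM. The ratio of UQCRC1 to UQCRC2, a pair also chosen after the values had been seen, was 6.01 in control and 5.01 in iron dextran. UQCRFS1, the Rieske iron-sulfur protein, had 54.3 and 55.6 FPKM. The small subunits were higher in level and lower in iron dextran: UQCR11 had 599 and 547 FPKM, UQCR10 had 427 and 384, and UQCRQ had 398 and 337, with a difference of −0.24. CYCS, the cytochrome c that carries electrons from complex III to complex IV, had 212 and 209 FPKM.

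Complex IV, cytochrome c oxidase, had the nuclear subunits with the highest levels. NDUFA4, first assigned to complex I and now counted with complex IV, led with 1488 FPKM in control and 1384 with iron dextran. COX7A2 had 882 and 742 FPKM and the lowest difference of the complex, −0.25. COX8A had 816 and 731 FPKM. COX5B (513 and 506 FPKM) hardly differed, while COX5A had 408 and 378. COX4I1, the common isoform of a regulatory subunit, had 384 and 356 FPKM. The isoforms COX4I2, COX6A2 and COX7A1 had no ID paired with that symbol. NDUFA4L2, an isoform induced by hypoxia in other tissues, was the measured alternative isoform and lay below 1 FPKM in both samples.

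Complex V had the narrowest range of differences among nuclear subunits, from −0.15 to −0.07 over 5 genes. ATP5F1A, the alpha subunit of the catalytic head, had 683 FPKM in control and 649 with iron dextran. ATP5PO, of the stalk that holds the head in place, had 472 and 439 FPKM, and ATP5ME, of the membrane part, had 393 and 354. ATP5MC1 and ATP5MC3 encode the same subunit of the rotating c ring with different import signals. They had 314 and 293 FPKM and 367 and 346 FPKM, and the ratio of ATP5MC3 to ATP5MC1 was 1.17 in control and 1.18 in iron dextran. ATP5IF1, which inhibits the enzyme when it runs backwards, had 385 and 382 FPKM.

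The measured nuclear-encoded members that hold iron were split in direction. NDUFS7, NDUFS8, NDUFV2 and CYC1, which also hold iron, had no ID paired with the symbol and are not counted. Of 7 nuclear-encoded members with an iron-sulfur cluster or haem, NDUFS1, UQCRFS1 and SDHD were above 0, and NDUFV1, SDHB, SDHC and CYCS were below. Their median was −0.01, the value of CYCS, a carrier and not a subunit. The mitochondrially encoded haem proteins COX1 and CYTB, not among the 7, were both below 0, at −0.17 and −0.15. Of 35 nuclear subunits with neither an iron-sulfur cluster nor haem, 1, UQCRC2, was above 0, and the median was −0.11. With the same column total, 5 of 7 and 21 of 35 were above 0, with medians of 0.11 and 0.01. The groups also differed in level, with a median control FPKM of 128 against 314. Of the 6 nuclear subunits with a mean FPKM under 100, 3 were above 0 and 3 below. Centred on genes of like expression, a setting chosen after seeing the data, 4 of 7 and 10 of 35 were above 0. The medians were then 0.09, again the value of CYCS, and −0.02. The part of level in this split was not tested, and the split has no replicate check.

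Factors that build or regulate the complexes had a lower median level than the nuclear subunits, 13.1 against 207 FPKM in control, and a wider spread of differences. COX17, COX7A2L and ATP5IF1 lay above that nuclear median. The part of level in the wider spread was not tested. Of 12 factors measured, 9 were below 0 and 3 above, with a median of −0.12. The assembly factors of complex I included both directions: NDUFAF7, a mitochondrial methyltransferase, had 4.36 FPKM in control and 5.34 with iron dextran, and NDUFAF1 had 12.2 and 13.4. NDUFAF4 had 13.9 and 11.4 FPKM, NDUFAF3 had 69.3 and 60.4, NDUFAF5 had 20.3 and 18.8, and NDUFAF6 had 2.67 and 2.36. For complex IV, COX18, which inserts part of COX2 into the membrane, had 6.73 and 5.18 FPKM and the lowest difference of all members, −0.32. The copper chaperone COX17 had 264 and 253 FPKM. COX15, of haem A synthesis, had 6.75 and 7.30 FPKM, and COX16 had 11.0 and 9.58. COX7A2L, which joins complexes into supercomplexes, had 259 and 236 FPKM.

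Other genes of the pathway, from lists that the naming rule does not cover, had no member past 1.5-fold on the log2(FPKM + 1) scale either. Of 19 further assembly and expression factors, 15 were below 0 and 4 above, with a median of −0.06. NUBPL, which delivers iron-sulfur clusters to complex I, had 2.23 FPKM in control and 1.34 with iron dextran. Its difference was −0.46 on this scale, which shrinks a change at so low a level. ATPAF2, a chaperone of the ATP synthase head, had 17.0 and 23.6 FPKM. TMEM126B had 26.6 and 20.9 FPKM and ECSIT had 46.6 and 39.6, both of the complex I assembly machinery. These 4 had the largest differences of their list. Of 19 genes of mitochondrial transcription and biogenesis, 10 were above 0 and 9 below, with a median of 0.01. The coactivator PPARGC1A had 1.19 and 1.68 FPKM, MTERF1 1.96 and 2.62, FASTKD2 6.80 and 7.74, and MTERF3 10.1 and 9.01. NRF1, a transcription factor of many respiratory genes, had 6.75 and 7.25 FPKM and was chosen after its values had been seen. The 14 genes of the tricarboxylic acid cycle and pyruvate dehydrogenase had a median of −0.0091, with 5 above 0 and 9 below. SUCLG1, a subunit of succinyl-CoA synthetase, had 230 and 182 FPKM, IDH3B 33.8 and 30.9, PDHA1 81.0 and 74.2, and DLD 60.3 and 65.2. Of 9 carriers and proteins of ATP delivery, with a median of −0.05, 3 were above 0 and 6 below. The outer membrane channel VDAC3 had 13.1 and 10.5 FPKM, the carrier UCP2 16.1 and 18.9, SLC25A14 7.71 and 8.99, and the creatine kinase CKB 1139 and 1033.

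In whole tissue, fewer cells of a type and less RNA per cell cannot be told apart. Neuron markers were present, from 110 to 1032 FPKM in control over the 7 measured. Their summed level was 3718 FPKM in control and 3581 with iron dextran, 0.963 of control, with 4 below 0. For comparison, the column total with iron dextran was 0.920 of control. The 6 oligodendrocyte markers summed to 9792 and 8610 FPKM, 0.879 of control, with 5 below 0. The 5 astrocyte markers summed to 1594 and 1530 FPKM, 0.960 of control, most of it GFAP (1275 and 1145 FPKM). Of these 5, 2 were below 0, GFAP among them, and the median difference was 0.27. The 3 endothelial markers summed to 22.2 and 19.99 FPKM, with 2 below 0. The 5 microglia markers summed to 70.6 and 95.5 FPKM, and the 3 erythroid markers to 189 and 519, with all 8 above 0. Most of the erythroid sum was HBB, with 183 and 506 FPKM. The erythroid marker SLC4A1 was listed at 0 in control. The choroid plexus and ependymal markers TTR and FOXJ1 summed to 28.8 and 30.4 FPKM but went opposite ways. TTR had 19.9 FPKM in control and 24.2 with iron dextran, and FOXJ1 had 8.89 and 6.14. The part of these cell types in the small differences of the oxidative phosphorylation genes was not tested.

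**Figure D4:**
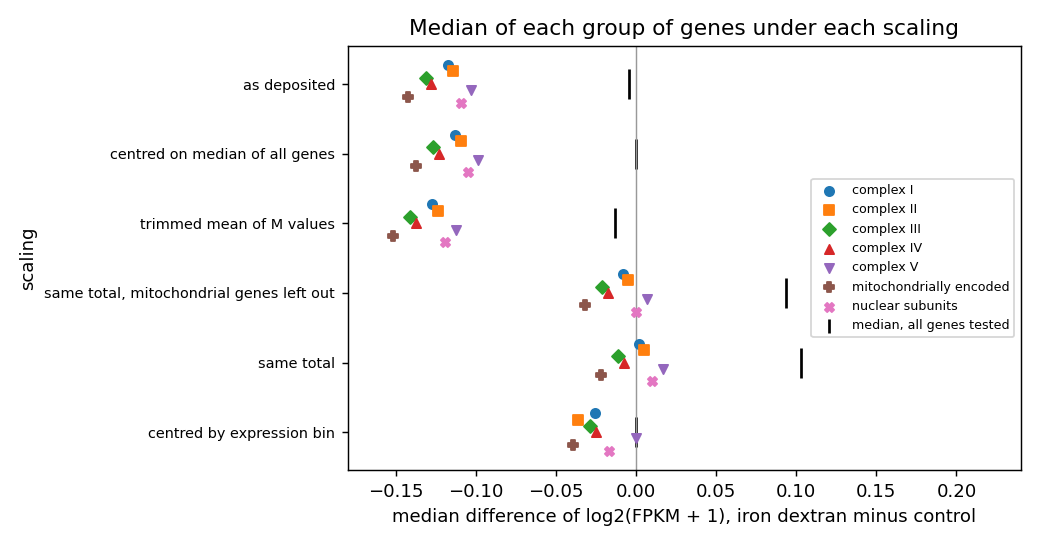
Median difference of log2(FPKM + 1) between iron dextran and control for each complex and for mitochondrially encoded and nuclear genes, under each scaling, with vertical ticks at the median of all genes tested. The medians lie near −0.1 as deposited and near 0 when the columns have the same total, where the tick for all genes moves to 0.10.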

How the data were processed

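Hippocampal RNA of 1 control and 1 iron dextran sample was sequenced. The deposited values are FPKM, a single column per sample over Ensembl pig gene IDs. Columns were assigned by the letter shared with the sample title. The submitters' processing notes name cutadapt 1.2.1, TopHat and the builds Sscrofa10.2 and susScr3. The quantifier, the annotation and the use of strand are not given in the sources, so overlapping genes and near-identical copies are uncertain.

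Symbols came from a table of Ensembl IDs and names, and the order and overlap of the mitochondrial genes from RefSeq's Sscrofa11.1. No coordinates are given. With 1 sample per group no test was made: the difference of log2(FPKM + 1) was computed (Python 3.11.15, pandas 2.3.3) and tested on simulated data, a mean FPKM of at least 1 was required, and a member counted from 1.5-fold. Named genes are all mitochondrial genes, per complex the highest subunit and the 2 largest differences each way, members past 1.5-fold or at 0, iron-binding subunits, isoforms, and up to 4 genes per other list; further members are given for completeness, and 1 member is counted but not reported by name here.

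The fragments sequenced are unknown. On 690 genes with a control FPKM under 0.1, the steps between low values, read as whole fragments, gave iron dextran a relative depth of 1.06. Of these genes, 53.3% had a ratio within 0.05 log2 of 1, 2 or 0.5 times the most common ratio. The rest did not, so this depth is a rough estimate. The members, the lists and the alternatives were chosen with earlier results of these data known.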

Additional observations from a re-analysis of the deposited data

How the results depend on the processing

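The count of members past 1.5-fold was 0 in each direction under all alternatives: pseudocounts of 0.1 and 0.01, no filter, a mean FPKM of at least 5, centring on the median of all genes, a trimmed mean of M values, both scalings of the column total, centring by expression bin and a fold of 2. A 95% interval of each median was taken from binomial order statistics over genes (the range of the subunits for complexes II, III and V). It describes the spread among genes, which are not replicates, and carries no error between samples. Medians stayed within this interval except under 3 settings. With the same column total the median was 0.0042 for all members, 0.0102 for nuclear subunits, −0.022 for mitochondrially encoded genes, 0.0016 for complex I, −0.0077 for complex IV and 0.0168 for complex V. Complex II (0.0050) and complex III (−0.0113) moved alike but stayed in their wide intervals. With the same total without mitochondrially encoded genes, the values in that order were −0.0054, 0.00013, −0.0321, −0.0084, −0.0178 and 0.0068. Centred by expression bin, a setting chosen after seeing the data, they were −0.0259, −0.0167, −0.0395, −0.0259, −0.0252 and −0.00033. The shifts under both column totals follow from how the columns are scaled. Centring by expression bin instead subtracts from each gene the median of genes of like expression. With genes that carry a symbol as the denominator, the mitochondrial share was 44.0% in control and 42.8% in iron dextran. No paired analysis was possible because each group is 1 sample. The depth is unknown, so no counting error is given, and differences of the size seen here cannot be set against any replicate error.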
